A study of Mus musculus with 14 samples.

Results

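A group of 32 genes of cholesterol synthesis, its control, and sterol transport and turnover was followed through 2 RNA-seq experiments on the mouse dorsal hippocampus. They were taken by gene symbol from a list that covers the mevalonate steps (7 genes), the later sterol steps (10), the SREBP and LXR regulators (7) and sterol transport and turnover (8). Rows were found for 31 of the 32 in both count tables, among 26570 genes in the basal table and 25933 in the learning table, and Hmgcs1, a synthase of the mevalonate steps, is not analysed here. All 31 passed the filter on low counts in every fit.

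RNA came from male mice aged 8 months, of strain C57BL6 in the labels and bred on C57BL6/J per the methods of the study, which count 1 mouse per library. The basal experiment compared untrained WT mice (WT basal, n = 3) with heterozygous THY-Tau22 mice (THY-Tau22 basal, n = 2), which carry a human Tau transgene with the G272V and P301S mutations under the neuronal Thy1.2 promoter. In the learning experiment, WT mice received saline and either stayed in the home cage (WT VEH_HC, n = 3) or were trained (WT VEH, n = 2). THY-Tau22 mice were all trained after injection of either CSP, a carbon nanosphere carrier (TAU VEH, n = 2), or CSP-TTK21, the carrier with an activator of the acetyltransferases CBP and p300 (TAU MOL, n = 2). Each mouse of the learning experiment had 3 weekly injections, at 500 µg per mouse for CSP and CSP-TTK21. Training lasted 3 days in the Morris water maze, and tissue was taken 1 h after its end. No WT group received CSP, so genotype and carrier cannot be told apart in the trained mice. The study left out 3 of 12 libraries of the learning experiment, from mice of a single litter, after seeing their profiles, and the groups here are what it kept.

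Cholesterol in the adult brain is made locally, because lipoproteins do not cross the blood-brain barrier. Mevalonate is phosphorylated and decarboxylated to isoprenoid units, which are joined to squalene and closed to a sterol ring that later enzymes trim to cholesterol. When membrane sterol falls, SCAP escorts SREBP-2 out of the endoplasmic reticulum and the cleaved factor switches on the synthesis genes, while INSIG proteins hold the complex back. Sterol excess feeds the LXR receptors, which raise exporters such as ABCA1. Neurons also remove cholesterol by turning it into 24-hydroxycholesterol with CYP46A1, an enzyme largely particular to brain.

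Of the 31 genes, 12 were differentially expressed in at least 1 of 5 group comparisons and 19 in none, the criterion being an adjusted p below 0.05 and an absolute log2 fold change of more than 0.2. All adjusted p-values are Benjamini-Hochberg values over every gene tested, by the quasi-likelihood method of edgeR. The lower expression of Mvd in THY-Tau22 mice had the largest fold change of all 31 genes in the comparisons with WT mice, and it was seen in both experiments. Counts were scaled with TMM factors within each experiment and are given as CPM, the count scaled to library size.

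**Figure D1:**
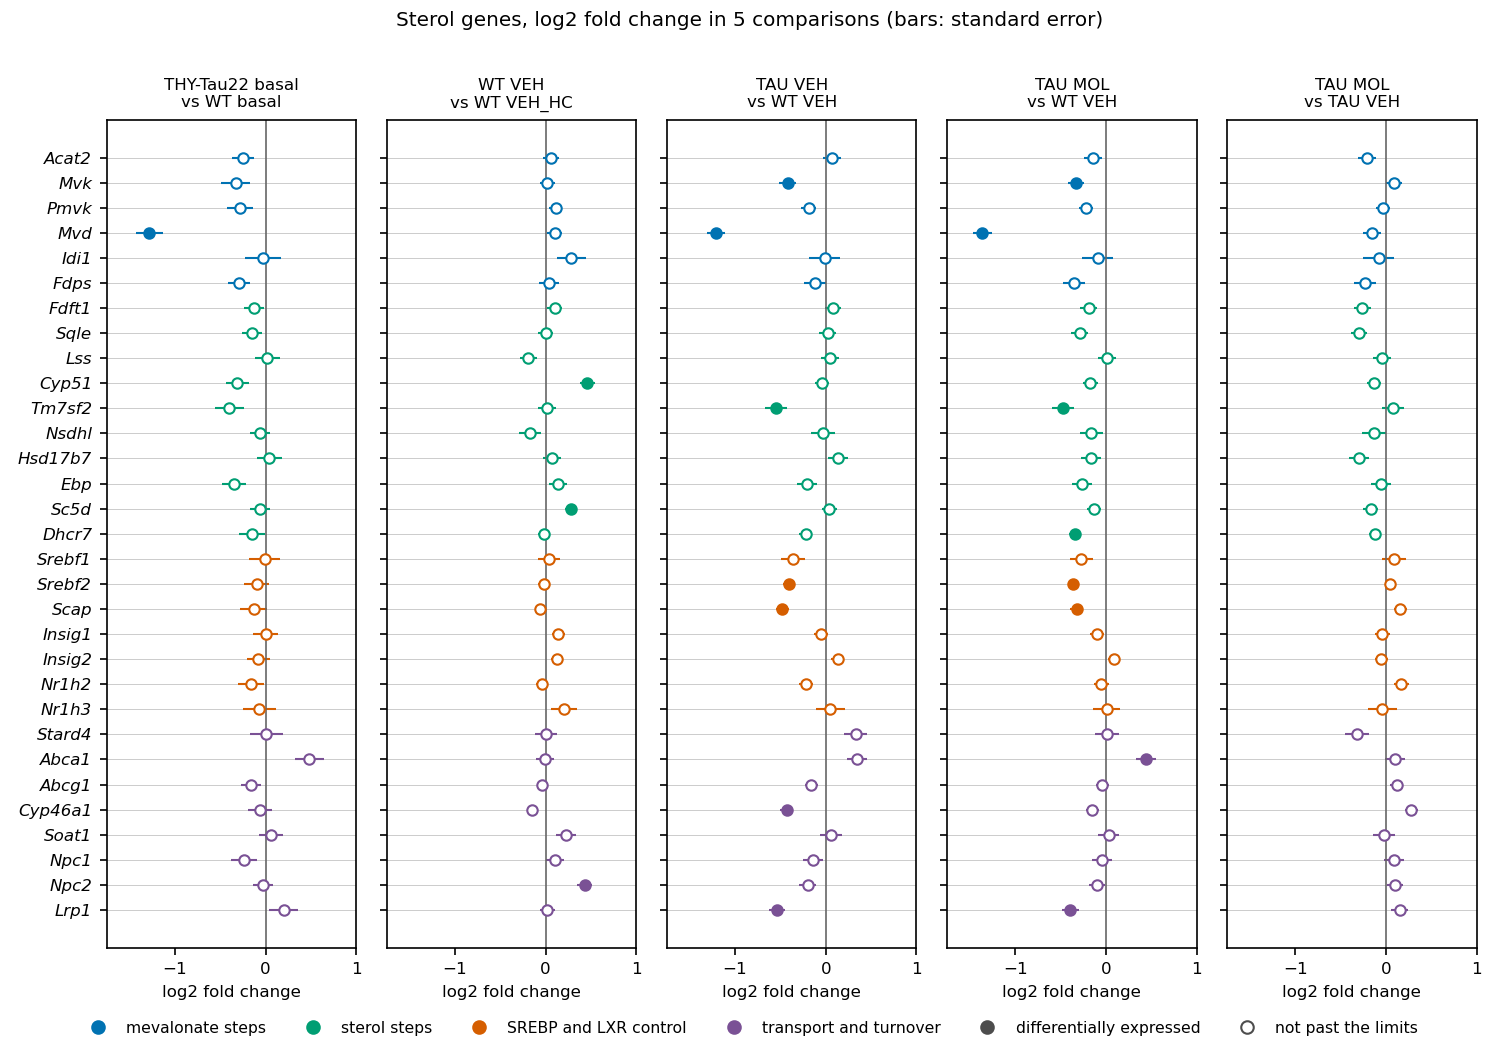
Log2 fold change (x axis) of the 31 genes (y axis) in 5 comparisons of groups, with the standard error as bars; colours give the role groups and filled points mark differential expression. Mvd lies at -1.28, -1.21 and -1.36 in the 3 comparisons of THY-Tau22 with WT mice, and no point is filled in TAU MOL vs TAU VEH.

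Promoter sequence is shown for 4 of the genes on which the results turn, which are Mvd (lower in THY-Tau22 mice of both experiments), Mvk (lower in trained THY-Tau22 mice), Cyp51 (higher after training) and Cyp46a1. Windows of 250 bases before to 50 bases after the gene start came from RefSeq (GRCm38.p6) and were placed on the genome build of the counts, NCBIM37 (mm9), by exact match. At least 1 window was at hand for 25 of the genes. The 200 bases before the start are printed 5′ to 3′ on the strand of the gene, with each CCAAT box, CCAAT or its reverse ATTGG, in capitals. The windows lie at chr8:124967323-124967522 on the minus strand for Mvd, chr5:114894078-114894277 on the plus strand for Mvk, chr5:4104698-4104897 on the minus strand for Cyp51, and chr12:109572326-109572525 on the plus strand for Cyp46a1.
Mvd: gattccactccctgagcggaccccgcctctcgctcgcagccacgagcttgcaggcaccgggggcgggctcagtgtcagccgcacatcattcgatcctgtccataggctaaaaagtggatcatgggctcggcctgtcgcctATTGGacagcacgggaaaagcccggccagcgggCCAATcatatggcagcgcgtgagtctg
Mvk: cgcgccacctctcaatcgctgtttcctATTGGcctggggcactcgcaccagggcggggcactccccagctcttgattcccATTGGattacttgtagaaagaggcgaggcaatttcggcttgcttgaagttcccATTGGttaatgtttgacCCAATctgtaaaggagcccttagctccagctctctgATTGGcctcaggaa
Cyp51: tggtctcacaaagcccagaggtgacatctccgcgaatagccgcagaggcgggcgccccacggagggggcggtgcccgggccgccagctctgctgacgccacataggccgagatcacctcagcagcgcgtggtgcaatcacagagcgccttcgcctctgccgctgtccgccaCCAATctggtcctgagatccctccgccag
Cyp46a1: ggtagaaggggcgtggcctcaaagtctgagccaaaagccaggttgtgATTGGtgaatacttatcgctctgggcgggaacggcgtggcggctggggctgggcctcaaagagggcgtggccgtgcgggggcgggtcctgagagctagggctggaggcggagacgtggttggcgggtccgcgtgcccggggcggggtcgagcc

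CCAAT boxes bind NF-Y, a factor known to act together with SREBP at sterol genes. In the printed stretch, Mvd has 2 boxes, whose first letters lie 60 and 27 bases before the gene start, and Mvk has 5, between 173 and 14 bases before it. Cyp51 has 1 at 29 bases and Cyp46a1 1 at 153 bases. Over the full windows, CCAAT or ATTGG was found for 19 of the 25 genes, in 20 of their 34 windows, against 37.51% of all 16218 windows. The GC box GGGCGG, on either strand, was found in 26 of the 34 windows and in 53.32% of all windows. The sterol regulatory element, spelled TCACNCCAC on either strand, was found in 0 of the 34 windows and in 1.27% of all windows, which says only that these letters are not in these windows. The spellings do not overlap one another, and a match is not a binding site.

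Levels were compared between genes per kilobase of exon. In untrained, saline-injected WT VEH_HC mice, Cyp46a1 had the highest level at 100.6 CPM per kb. Srebf2, which encodes SREBP-2, followed at 82.8 CPM per kb, and Lrp1, a receptor that takes up lipoproteins, had 43.6 CPM per kb. At the low end stood Idi1, the isomerase of isopentenyl diphosphate, at 0.985 CPM per kb, and Nr1h3, which encodes LXRα, at 1.16 CPM per kb. Cyp46a1 and Srebf2 were also first and second in WT basal mice, at 71.4 and 55.5 CPM per kb. The synthesis enzymes spanned a range of levels, with Fdps, which makes farnesyl diphosphate, at 24.9 CPM per kb in WT VEH_HC mice and Lss, which closes the sterol ring, at 2.68. Mvd lay in the middle of the list in both groups, at 12.1 CPM per kb in WT VEH_HC and 14.4 in WT basal mice.

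The first comparison asked which of these genes differ with the transgene in untrained mice. Mvd, the decarboxylase among the mevalonate steps, had 26.3, 23.4 and 26.2 CPM in the WT basal libraries and 11.9 and 8.96 CPM in the THY-Tau22 basal libraries. Both THY-Tau22 libraries lay below every WT library, and the fitted ratio was 0.413 (log2 fold change -1.28, standard error 0.15, adjusted p = 0.0274 in edgeR). Mvd was the only gene of the 31 that passed the limits. Over all 16324 genes tested, 0.0184% were differentially expressed and lower and 0.00613% higher. The call rested on single libraries. The adjusted p was 0.106 without WT basal replicate 2, 0.0555 without WT basal replicate 3 and 0.0848 without THY-Tau22 basal replicate 2, while the log2 fold change stayed between -1.06 and -1.47 over all 14 alternatives.

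The other genes of the mevalonate steps had log2 fold changes below 0 in the basal experiment, with a median over the 6 measured of -0.29, where the median of all genes was -0.01. None of these 5 passed the limits. Mvk (mevalonate kinase) had -0.33, Pmvk (phosphomevalonate kinase) -0.28, Fdps -0.29, Acat2, the thiolase that makes acetoacetyl-CoA, -0.25 and Idi1 -0.03. The value of Acat2 is uncertain, because mice have a similar gene, Acat3, and reads common to both would not be counted as unique. Over all 31 genes the median was -0.10, and 25 lay below 0, where 8420 of all 16324 genes did. Spearman's rho between GC content and log2 fold change was -0.30 over the 31 genes and -0.30 over all genes. After a correction for GC content and length it was 0.10 and 0.04. The 10 markers of oligodendrocytes, which make myelin and much of the sterol of the brain, all lay below 0 as well, with a median of -0.46 and none past the limits, and their sums were 6878.0 to 7159.9 CPM in THY-Tau22 basal against 7371.5 to 12182.4 CPM in WT basal libraries. The astrocyte markers summed to 5344.1 to 6467.1 CPM in THY-Tau22 basal and 4768.1 to 5011.6 CPM in WT basal libraries, and the 8 microglia markers to 567.4 to 594.4 CPM and 502.7 to 525.3 CPM, with none past the limits (medians 0.08 and 0.21). The part of these cells in the values was not tested. Abca1, the exporter that lipidates apolipoproteins, had the smallest unadjusted p after Mvd, at 0.0133. Its libraries read 36.8, 28.8 and 38.2 CPM in WT and 41.8 and 54.6 CPM in THY-Tau22 mice, which do not overlap, but its log2 fold change of 0.48 (standard error 0.16) had an adjusted p of 0.901 in edgeR. Ebp, the sterol isomerase, came next with a log2 fold change of -0.35 (unadjusted p = 0.0231, adjusted p = 0.901). Its levels were 19.4, 21.1 and 19.5 CPM in WT basal and 17.2 and 14.1 CPM in THY-Tau22 basal libraries.

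Cyp46a1 did not pass the limits in untrained mice. It had 148.2, 156.0 and 149.9 CPM in WT basal libraries, and 165.0 and 125.6 CPM in THY-Tau22 basal libraries, one above and one below all WT libraries. The log2 fold change was -0.06, with a 95% interval from -0.35 to 0.24. Replicate 1 was also the higher of the 2 THY-Tau22 libraries for Scap (108.5 and 73.8 CPM), Srebf2 (292.4 and 225.7 CPM) and Lrp1 (588.7 and 463.7 CPM). Of these genes, Scap alone had 1 library above and 1 below all WT libraries. The summed level of 14 choroid plexus markers was 701.5 CPM in replicate 1 and 1985.2 CPM in replicate 2, against 593.4 to 709.9 CPM in WT basal libraries. With the mean log2 level of these markers (the choroid plexus score) as a covariate, Mvd stood at -1.06 on the log2 scale (adjusted p = 0.0891). In bulk tissue, fewer cells of a type and less RNA per cell cannot be told apart.

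The second comparison, WT VEH vs WT VEH_HC, asked what training changes in WT mice. Cyp51, Npc2 and Sc5d were higher after training and none of the 31 genes was lower, where 5.35% of the 16820 genes tested were higher and 3.05% lower. Cyp51, the demethylase of lanosterol, had 30.7, 32 and 33.1 CPM in home cage mice and 46.9 and 41.1 CPM in trained mice, with no overlap. Its log2 fold change was 0.46 (standard error 0.08, adjusted p = 0.00718 in edgeR). Npc2, the soluble protein that hands cholesterol over in the lysosome, rose from 46.6, 43.8 and 51.3 CPM to 63.2 and 64.3 CPM, with a log2 fold change of 0.43 (adjusted p = 0.0147, standard error 0.08). Sc5d, the desaturase that acts near the end of the pathway, rose from 27.9, 26.1 and 27.9 CPM to 33.6 and 32.6 CPM, with a log2 fold change of 0.28 (adjusted p = 0.0383, standard error 0.07). The libraries of the 2 groups were separate for each of the 3 genes.

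**Figure D2:**
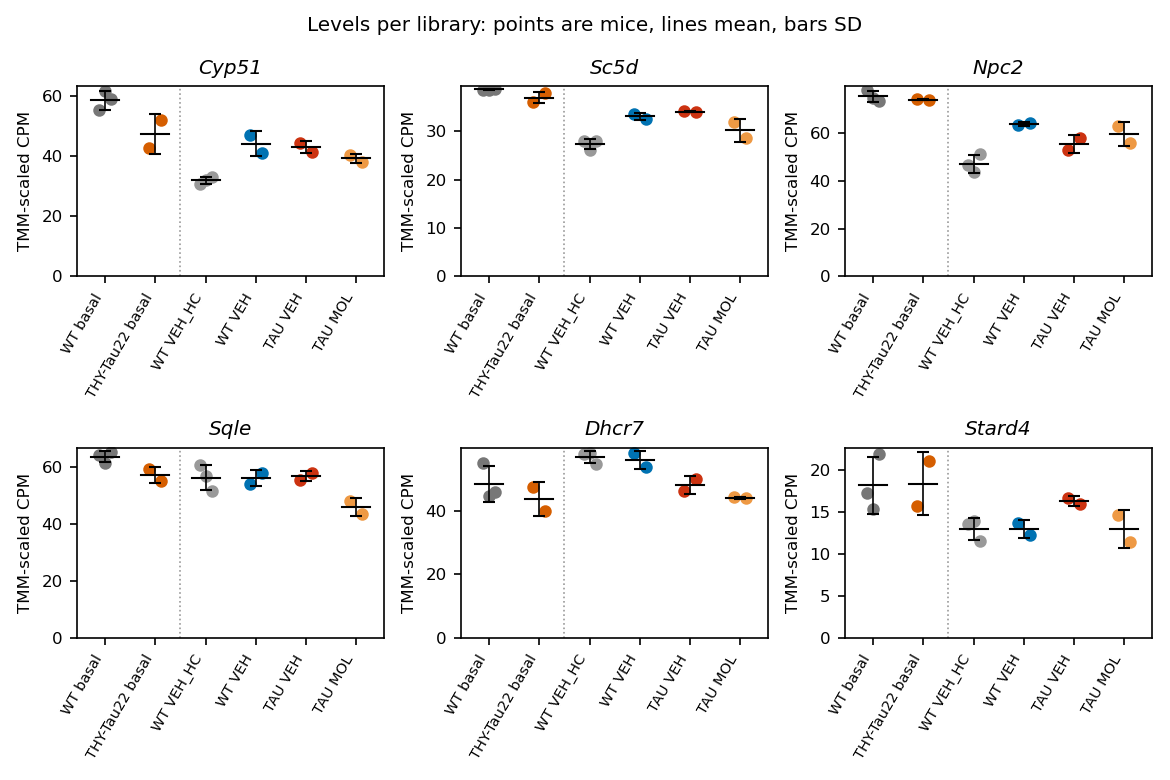
TMM-scaled CPM (y axis) of 6 genes in each library by group (x axis), with the mean as a line and the SD as bars; the dotted line separates the 2 experiments, which were scaled separately. Cyp51, Sc5d and Npc2 lie higher in both WT VEH mice than in the 3 WT VEH_HC mice, while Sqle, Dhcr7 and Stard4 overlap between these groups.

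Cyp46a1 did not pass the limits after training. It had 201.1, 214.8 and 223.6 CPM in home cage mice and 189.5 and 194.0 CPM in trained mice, which do not overlap, and its log2 fold change was -0.15 with a 95% interval from -0.29 to -0.01 (unadjusted p = 0.0338, adjusted p = 0.145 in edgeR).

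The other genes gave a median near 0. The median log2 fold change of all 31 was 0.04, and that of all genes tested 0.00. Spearman's rho between GC content and log2 fold change was -0.38 over the 31 genes and -0.28 over all genes. Sqle, which opens the way to the sterol ring by oxidising squalene, had a log2 fold change of 0.00 with a 95% interval from -0.18 to 0.17, and Dhcr7, a reductase of the last step, -0.02 with an interval from -0.17 to 0.12. Fdft1, which makes squalene, had 0.10, Hsd17b7, a reductase of sterol ketones, 0.07, and Nsdhl, a dehydrogenase of the demethylation steps, -0.17. Lss had -0.19 and Idi1 0.28. Srebf2 had -0.02 and Srebf1 0.04, and Mvd had 22.7, 22.1 and 19.4 CPM in home cage mice and 22.8 and 23.0 CPM in trained mice (log2 fold change 0.10, adjusted p = 0.472).

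Other genes of the pathway, listed by role and not by result, were read beside these. Among 21 other sterol genes tested, 3 were higher after training and 0 lower. They were Sc4mol, the methyl oxidase that follows Cyp51 (log2 fold change 0.44, adjusted p = 0.0173), Ggps1, which makes geranylgeranyl diphosphate (0.44, adjusted p = 0.0117), and Lipa, the acid lipase of the lysosome (0.30, adjusted p = 0.045). None of 13 fatty acid genes driven by SREBP-1 passed the limits.

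The training calls depended on the trained libraries. Without WT VEH replicate 1 none of the 3 genes passed the limits (adjusted p = 0.152 for Cyp51, 0.157 for Npc2 and 0.272 for Sc5d), and without WT VEH replicate 2 Cyp51 alone passed (0.0774 for Npc2 and 0.114 for Sc5d). Sc5d also missed the limit without WT VEH_HC replicate 1 (0.072) and replicate 2 (0.0828), with the GC and length correction (0.18 on the log2 scale, 0.13), with that correction and the replicate block (0.133), and in the fit on only the groups compared (0.0802). The 14 choroid plexus markers were all higher in WT VEH than in WT VEH_HC mice, with sums from 2188.7 to 3139.1 CPM against 158.4 to 413.4 CPM. The 2 groups do not overlap in this sum. The 10 oligodendrocyte markers had a median log2 fold change of 0.37 with none past the limits, and their sums of 3953.1 to 7988.4 CPM in home cage and 7600.5 to 7832.6 CPM in trained mice do overlap. The 8 microglia markers summed to 461.9 to 478.6 CPM in trained and 393.8 to 458.0 CPM in home cage mice, which do not overlap, with a median of 0.24 and 1 of them higher past the limits. The astrocyte markers summed to 4152.0 to 4447.9 CPM and 4192.8 to 4366.2 CPM, with 2 of 10 higher. The 3 blood markers summed to 22.0 to 26.0 CPM in trained and 16.5 to 20.5 CPM in home cage mice. Their median was 0.40, with 1 higher past the limits and 1 below 0. The part of oligodendrocytes, microglia, astrocytes and blood was not tested. That of the choroid plexus in the 3 increases could not be separated from training by the covariate. Under it the log2 fold changes were 0.16 for Cyp51, -0.11 for Npc2 and 0.05 for Sc5d, and 0 of all genes passed the limits.

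The third comparison, TAU VEH vs WT VEH, asked how trained THY-Tau22 mice differ from trained WT mice. Of the 31 genes, 7 were lower and 0 higher, where 10.8% of all genes tested were lower and 3.61% higher. The 7 were Mvd and Mvk among the mevalonate steps, Tm7sf2 among the sterol steps, Scap and Srebf2 among the regulators, and Lrp1 and Cyp46a1 among transport and turnover. Mvd had 22.8 and 23.0 CPM in WT VEH and 9.69 and 10.2 CPM in TAU VEH mice. The libraries were far apart, with a ratio of 0.433 (log2 fold change -1.21, standard error 0.10, adjusted p = 0.000443 in edgeR). Mvd passed the limits without each of the 4 libraries in turn.

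**Figure D3:**
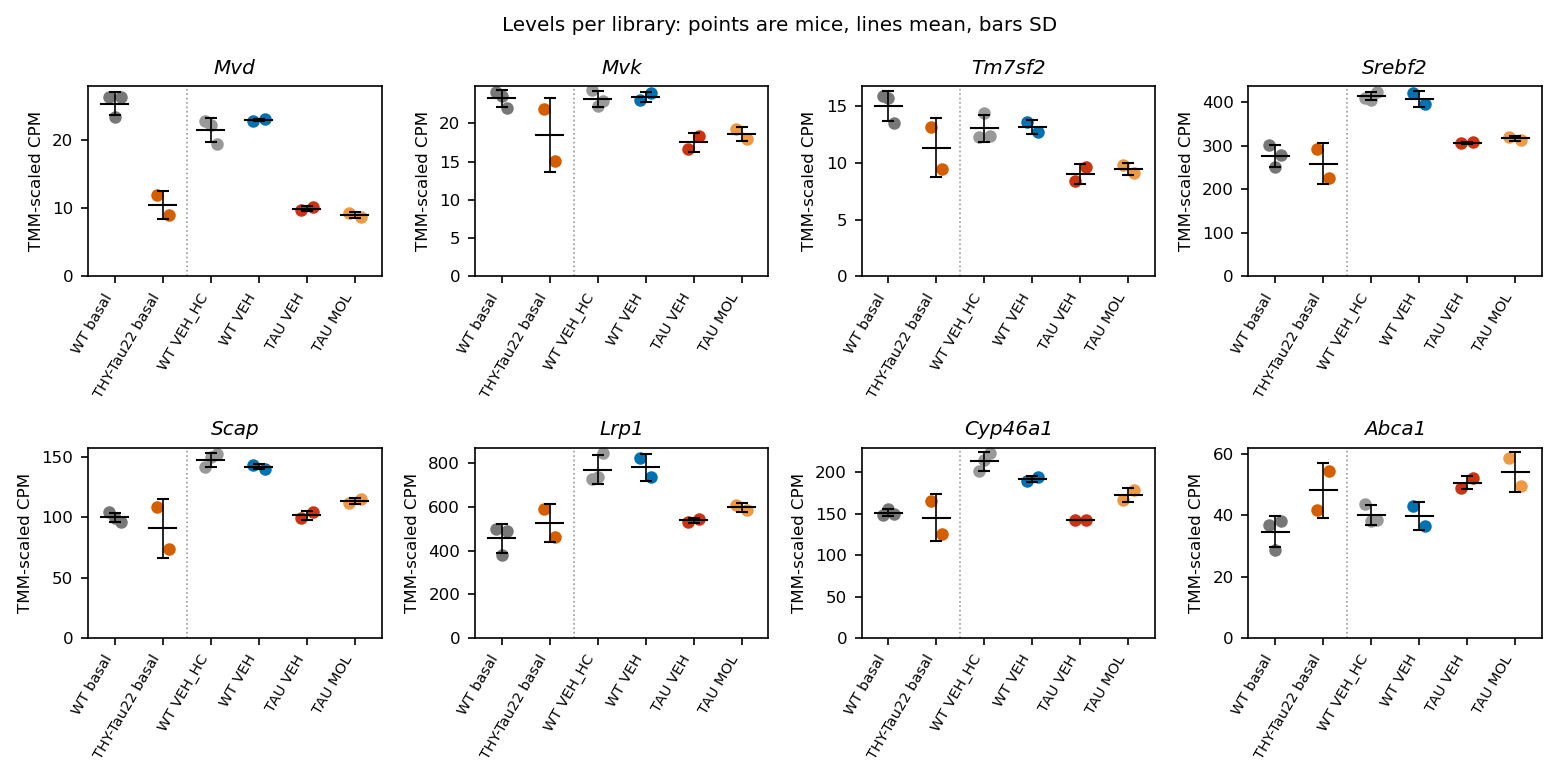
TMM-scaled CPM (y axis) of 8 genes in each library by group (x axis), with the mean as a line and the SD as bars; the dotted line separates the 2 experiments. Mvd lies between 8.63 and 11.9 CPM in the 6 THY-Tau22 mice and between 19.4 and 26.3 CPM in the 8 WT mice.

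The remaining genes differed by less. Tm7sf2, a sterol reductase, had 13.6 and 12.7 CPM in WT VEH and 8.41 and 9.66 CPM in TAU VEH mice (log2 fold change -0.55, standard error 0.12, adjusted p = 0.00916). Lrp1 had 825.1 and 738.2 CPM against 531.0 and 545.5 CPM (-0.54, standard error 0.09, adjusted p = 0.00201). In both genes each TAU VEH library lay below each WT VEH library. Scap, the escort of SREBP, had 143.8 and 140.5 CPM against 99.2 and 104.2 CPM (-0.48, standard error 0.07, adjusted p = 0.00124). Cyp46a1 had 189.5 and 194.0 CPM against 142.6 and 142.3 CPM (-0.43, standard error 0.07, adjusted p = 0.00222). The 2 TAU VEH libraries agreed closely for Cyp46a1, unlike the 2 THY-Tau22 basal libraries. Mvk had 23.0 and 23.9 CPM against 16.6 and 18.4 CPM (-0.42, standard error 0.09, adjusted p = 0.00741). Srebf2 had 420.9 and 395.0 CPM against 305.1 and 308.1 CPM (-0.41, standard error 0.06, adjusted p = 0.0017). Tm7sf2 missed the limit without WT VEH replicate 1 (adjusted p = 0.0772) or TAU VEH replicate 1 (0.123), and Mvk without WT VEH replicate 2 (0.058) or TAU VEH replicate 1 (0.102). The counts of Tm7sf2 and Scap are uncertain, since 15.3% and 18.9% of their exon bases are shared with another gene.

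The genes that did not pass the limits included most of the sterol steps. Fdft1 had a log2 fold change of 0.08, Sqle 0.02, Lss 0.05, Cyp51 -0.04, Nsdhl -0.03, Hsd17b7 0.14 and Sc5d 0.04, with adjusted p between 0.472 and 0.942. Ebp had -0.21 and Dhcr7 -0.22 (adjusted p = 0.245 and 0.0698). Among the regulators, Srebf1, the isoform tied to fatty acid synthesis, had -0.36 (adjusted p = 0.0971), Nr1h2, which encodes LXRβ, -0.22 (0.0876), Nr1h3 0.05, Insig1 -0.05 and Insig2 0.13. Abca1 had 0.34 (0.0528), and it passed the limits as higher with DESeq2, with median-of-ratios factors, with library size alone, with no filter on low counts, with the replicate block and in the fit on only the groups compared. Also not past the limits was Stard4, a carrier of cholesterol between membranes, at 0.33 (0.128). Abcg1, a further exporter, had -0.16, Npc1, the lysosomal membrane partner of Npc2, -0.14, Npc2 -0.20 and Soat1, which stores cholesterol as ester, 0.06. Of the mevalonate steps, Pmvk had -0.19, Fdps -0.12, Idi1 -0.01 and Acat2 0.07. The median of the 31 genes was -0.12 and that of all genes tested 0.00.

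Scaling bore on the weaker changes. Without TMM factors, on library size only, all genes had a median log2 fold change of 0.15, and 9 of the 31 genes were differentially expressed, where 2578 of the 16820 genes were higher and 1020 lower. The 3 higher ones were then Abca1, Insig2 and Stard4, and the 6 lower ones did not include Mvk. Among the other genes of the pathway under TMM scaling, the lower ones of 21 sterol genes included Abca2, Abcg4 and Stard3, and 2 were higher (Abca5 and Nceh1). Abcg4, an exporter of brain cells, had a log2 fold change of -0.49, and Stard3, a sterol carrier of late endosomes, -0.45. Of the 13 fatty acid genes, Fasn, the fatty acid synthase, was lower (-0.57, adjusted p = 0.00142) and no other passed the limits.

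The lower genes were rich in G and C. The GC content of the 7 lay between 54.5% and 59.3%, where the median was 50.3% over the 31 genes and 50.0% over all genes tested. Of the 11 genes at or above 54.5%, 7 were lower, and of the 20 below it 0 were, as the limit was set at the lowest GC content among the 7 and this split is a description. Among all genes tested, 31.4% of the 4398 at or above 54.5% were lower, and 3.51% of the 12382 below it. Across genes, which are not independent and share libraries, Spearman's rho between GC content and log2 fold change was -0.74 over the 31 genes and -0.52 over all genes. With GC content and gene length corrected for, 535 of all genes were differentially expressed and 442 of them lower, against 2423 and 1815 before. Of the 7 genes, 1 was still differentially expressed, Mvd, at a log2 fold change of -0.91 (adjusted p = 0.0044 in edgeR). The log2 fold changes of the others were then -0.42 for Tm7sf2, -0.36 for Lrp1, -0.24 for Mvk, -0.19 for Scap, -0.16 for Cyp46a1 and -0.16 for Srebf2. For Mvd, the genes within 1 percentage point of its GC content had a median log2 fold change of -0.31 before the correction (796 genes).

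**Figure D4:**
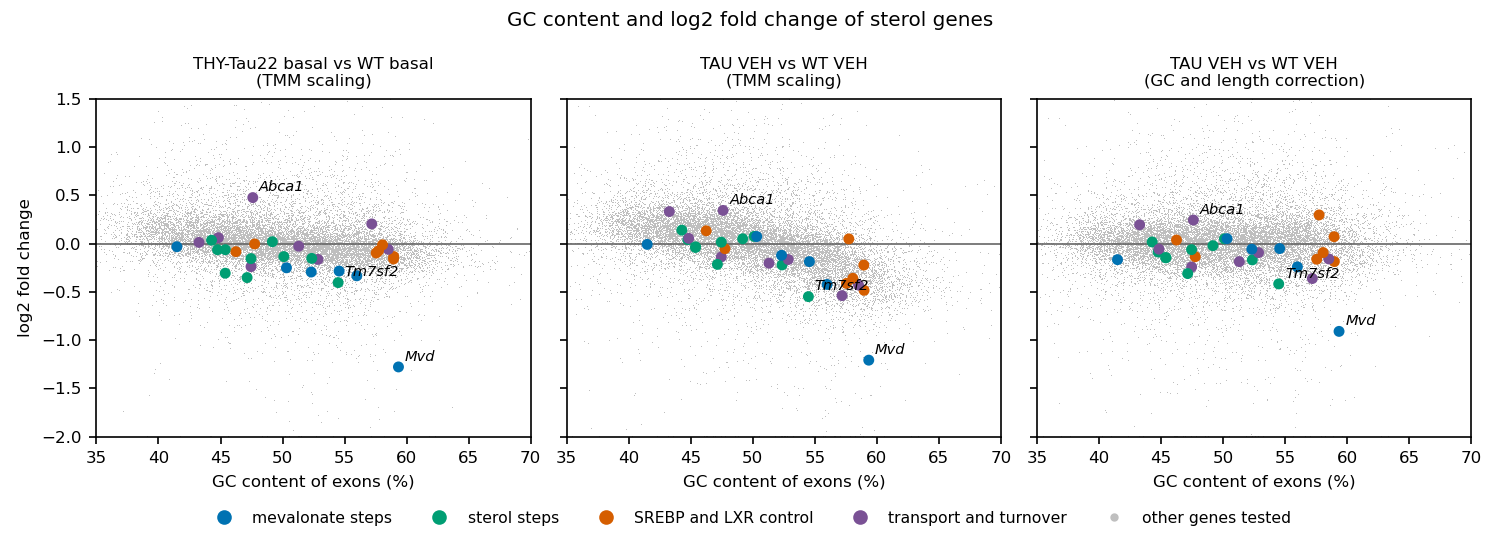
Log2 fold change (y axis) against the GC content of the exons (x axis, in %) for the 31 genes, coloured by role group, over all genes tested in grey (values beyond the axis drawn at its edge), in the basal experiment, in TAU VEH vs WT VEH, and in the latter after a correction for GC content and length. The slope of the grey cloud in the middle panel (rho -0.52) is gone in the right panel (rho -0.01), where Mvd still lies at -0.91.

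Markers of other cells moved with this comparison as well. All 14 choroid plexus markers fell in TAU VEH relative to WT VEH mice, with sums of 460.2 to 542.3 CPM against 2188.7 to 3139.1 CPM. The 9 neuronal markers summed to 13558.9 to 13980.6 CPM in TAU VEH and 18221.7 to 18264.9 CPM in WT VEH mice, and 4 of them passed the limits as lower. Only 5 of the 9 lay below 0, however, and their median log2 fold change was -0.04. The 10 astrocyte markers summed to 5161.5 to 5275.4 CPM against 4152.0 to 4447.9 CPM, with 3 of them higher. None of the markers was at 0 in any group. The 10 oligodendrocyte markers, which mark the cells that make myelin, summed to 7307.6 to 7446.6 CPM against 7600.5 to 7832.6 CPM, with 0 past the limits. The 4 endothelial markers summed to 97.6 to 106.1 CPM against 121.5 to 129.7 CPM, with 3 below 0, a median of -0.18 and 0 past the limits. With the choroid plexus score as a covariate 0 of all 16820 genes passed the limits, and so none of the 31. Mvd stood at -1.46 on the log2 scale (adjusted p = 0.204 in edgeR). The choroid plexus sums of the 2 groups do not overlap, so this fit could not separate these cells from genotype and carrier. The part of the other cells in the 7 lower genes was not tested.

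The fourth comparison, TAU MOL vs TAU VEH, asked what CSP-TTK21 changes in trained THY-Tau22 mice, with CSP in both groups. None of the 31 genes was differentially expressed, and of all genes tested 0.0% were higher and 0.0% lower. Unadjusted p-values under 0.05 were found for 7 of the 31 genes and for 1064 of all 16820, and DESeq2 called none of the 31 and 52 of all genes. The smallest was that of Cyp46a1, with 142.6 and 142.3 CPM in TAU VEH and 166.9 and 178.8 CPM in TAU MOL mice. These libraries do not overlap, and the log2 fold change was 0.28, with a 95% interval from 0.13 to 0.43 (unadjusted p = 0.00186, adjusted p = 0.347 in edgeR). Sqle had 55.6 and 58.2 CPM in TAU VEH and 48.3 and 43.7 CPM in TAU MOL mice, a log2 fold change of -0.30 with an interval from -0.50 to -0.11 (adjusted p = 0.459). Fdft1 had 55.2 and 60.8 CPM against 51.1 and 45.2 CPM, a log2 fold change of -0.26 with an interval from -0.46 to -0.07 (adjusted p = 0.604). The value of Fdft1 is uncertain, since 26.9% of its exon bases lie across those of Ctsb on the other strand and the library kit does not mark strand. Mvd had 9.69 and 10.2 CPM in TAU VEH and 9.26 and 8.63 CPM in TAU MOL mice, a log2 fold change of -0.15 with an interval from -0.37 to 0.08.

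No gene of any role group passed the limits in this comparison. The median log2 fold change was -0.13 over the 10 sterol steps, of which 9 lay below 0, and 0.10 over the 8 genes of transport and turnover, of which 2 did. For all genes tested it was 0.01. Hsd17b7 had -0.30, Sc5d -0.17 and Stard4 -0.32, and Scap 0.16 and Nr1h2 0.17, with adjusted p between 0.691 and 0.797. The widest of the intervals was that of Idi1, from -0.46 to 0.30. All 14 choroid plexus markers lay above 0 in this comparison, with none past the limits, and their sums were 1067.8 to 1178.7 CPM in TAU MOL against 460.2 to 542.3 CPM in TAU VEH mice. The log2 fold changes also ran with GC content across genes, at a Spearman's rho of 0.58 over the 31 genes and 0.23 over all genes. With the choroid plexus covariate the log2 fold changes were 0.23 for Cyp46a1, -0.18 for Sqle and -0.19 for Fdft1, and with the GC and length correction 0.21, -0.29 and -0.25. The part of either was not tested further. The differences between role groups were not tested.

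The fifth comparison set TAU MOL against WT VEH. It shares WT VEH with the third comparison and TAU MOL with the fourth, so its values are not independent of theirs. Of the 31 genes, 7 were lower and 1 higher, where 5.02% of all genes tested were lower and 0.612% higher. Mvd had 9.26 and 8.63 CPM in TAU MOL and 22.8 and 23.0 CPM in WT VEH mice, a ratio of 0.391 (log2 fold change -1.36, standard error 0.10, adjusted p = 0.000129 in edgeR). Next came Tm7sf2, with 9.86 and 9.1 CPM in TAU MOL mice (-0.47, adjusted p = 0.0382), and Abca1, the higher one, with 58.7 and 49.6 CPM in TAU MOL against 43.0 and 36.6 CPM in WT VEH mice (0.44, adjusted p = 0.0342). Lrp1 had 611.5 and 584.5 CPM in TAU MOL mice (-0.39, adjusted p = 0.0251), Srebf2 320.7 and 312.8 CPM (-0.36, adjusted p = 0.0105), and Dhcr7 44.3 and 43.9 CPM against 58.0 and 53.9 CPM in WT VEH mice (-0.34, adjusted p = 0.0221). In each of these genes the libraries of the 2 groups were separate. Mvk (-0.33, adjusted p = 0.0481) and Scap (-0.32, adjusted p = 0.0189) were lower too. Cyp46a1, with 166.9 and 178.8 CPM, lay below both WT VEH libraries and had a log2 fold change of -0.15 with a 95% interval from -0.30 to 0.00 (adjusted p = 0.261).

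Only Mvd kept its call in the fifth comparison when any 1 of the 4 libraries was left out, at adjusted p values up to 0.00654 over all its alternatives. The other 7 genes each missed the limit without any of these libraries. Such fits leave 1 mouse in a group, and few genes of any kind passed in them. Each of the 7 also missed it after the correction for GC content and length, under which 20 of all 16820 genes passed. Over all 14 alternatives the log2 fold change ran from -0.53 to -0.35 for Tm7sf2, 0.32 to 0.58 for Abca1 and -0.46 to -0.18 for Lrp1. It ran from -0.41 to -0.19 for Srebf2, -0.39 to -0.22 for Dhcr7, -0.38 to -0.19 for Mvk and -0.34 to -0.12 for Scap. All 14 choroid plexus markers lay lower in TAU MOL than in WT VEH mice, 9 of them past the limits, with sums of 1067.8 to 1178.7 CPM in TAU MOL mice. The neuronal markers summed to 13217.0 to 14187.0 CPM in TAU MOL against 18221.7 to 18264.9 CPM in WT VEH mice, with 2 of 9 lower past the limits, 6 below 0 and a median of -0.09, and the astrocyte markers to 4934.2 to 5525.2 CPM against 4152.0 to 4447.9 CPM, with 2 of 10 higher. The 4 endothelial markers summed to 88.7 to 105.9 CPM against 121.5 to 129.7 CPM, with all 4 below 0, a median of -0.27 and 0 past the limits. The part of neurons, astrocytes and endothelial cells was not tested. The part of the choroid plexus in these changes was not tested further than by the covariate, under which Mvd alone passed the limits (-1.48, adjusted p = 0.00183).

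The genotype difference was then compared between trained and untrained mice, in a single fit over all 14 libraries. None of the 31 genes differed past the limits, where 0.0% of 17026 genes were higher and 0.129% lower. For 3 of the 31 genes the unadjusted p was under 0.05, and for 1325 of all 17026 genes. DESeq2 called 1, Lrp1, among 119 genes in all. Lrp1 had a log2 difference of -0.72 (standard error 0.19, unadjusted p = 0.002, adjusted p = 0.259). In the separate fits its log2 fold change was 0.20 in untrained and -0.54 in trained mice. Acat2 followed at 0.36 (adjusted p = 0.56) and Cyp46a1 at -0.34 (adjusted p = 0.63). For Mvd the difference was 0.10, with a 95% interval from -0.27 to 0.47. Without THY-Tau22 basal replicate 2, the library with the high choroid plexus sum, only replicate 1 was left in that group. Replicate 1 was the higher of the 2 for Cyp46a1 (165.0 CPM) and Lrp1 (588.7 CPM). The log2 difference was then -0.54 for Cyp46a1 and -0.90 for Lrp1, and calls are not given for this fit. Training, injection and experiment cannot be told apart in this test.

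Since Mvd stood out from its pathway, the genes around it were read too, a step chosen after its values were seen. Mvd (ENSMUSG00000006517) spans chr8:124957496-124967322 of mm9 on the minus strand, and none of its exon bases is shared with another annotated gene. Within 300 kb on each side, 14 other genes were tested. In TAU VEH vs WT VEH, 7 of these 14 were differentially expressed, and all 7 were lower, where 10.8% of all genes tested were lower and 31.4% of those with a GC content of 54.5% or more. Apart from 9330133O14Rik, all of the 14 had a GC content of 53.2% or more. The median log2 fold change of the 14 was -0.42 in that comparison and -0.14 in the basal experiment, where none of them passed the limits. The nearest, 9330133O14Rik, starts 0.2 kb before Mvd and runs the other way, just beyond the stretch printed above. The kit does not mark strand. It had 3.48 and 4.03 CPM in WT VEH, 2.33 and 2.08 CPM in TAU VEH and 1.56 and 1.65 CPM in TAU MOL mice (log2 fold changes of -0.76 and -1.23 from WT VEH, adjusted p = 0.00857 and 0.00993). Its levels were 6.36, 5.68 and 5.55 CPM in WT VEH_HC mice, and in the basal experiment they were 4.65, 4.05 and 5.12 CPM in WT and 3.69 and 2.83 CPM in THY-Tau22 libraries.

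Cyba, a subunit of the phagocyte NADPH oxidase whose start lies 10.5 kb downstream, had 9.96 and 9.8 CPM in WT VEH and 5.07 and 5.55 CPM in TAU VEH mice (-0.90, adjusted p = 0.00101). Zfpm1 had -0.88 and Rnf166 -0.39 in the same comparison. Zc3h18, 66.8 kb away between Cyba and Zfpm1, had -0.03 with a standard error of 0.07. Apart from 9330133O14Rik, at 48.4%, the 7 lower neighbours had GC contents between 57.6% and 66.9%, that of Zfpm1. The lower expression was not shared by every gene of the stretch, and no neighbour had a log2 fold change as far below 0 as that of Mvd in the 3 comparisons shown.

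**Figure D5:**
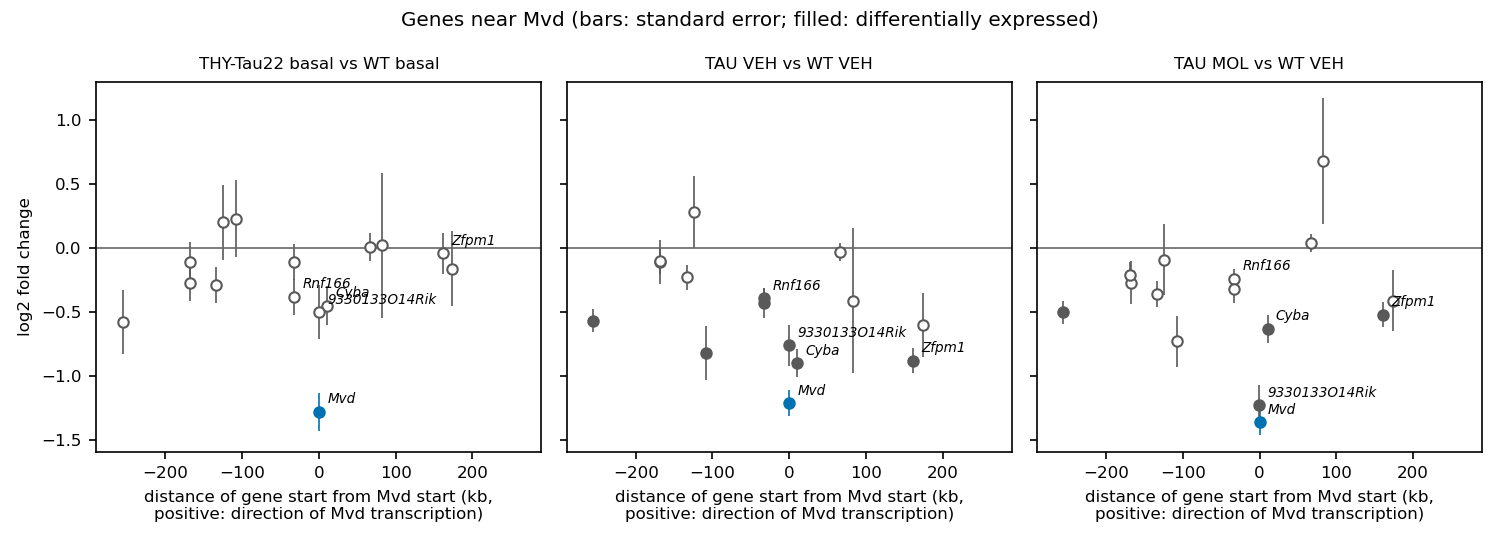
Log2 fold change (y axis, bars show the standard error) of Mvd and the 14 genes tested within 300 kb of it, against the distance of each gene start from that of Mvd (x axis, in kb), in 3 comparisons of THY-Tau22 with WT mice; filled points mark differential expression. Mvd is the lowest point in each panel, at -1.28, -1.21 and -1.36.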

How the data were processed

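RNA-seq libraries were made by the authors from poly-A RNA of the dorsal hippocampus and read as single ends. Per the labels and the methods of the study, reads were mapped to mm9 with TopHat2 2.0.10 and Bowtie2 2.1.0, and uniquely aligned reads were counted on Ensembl genes with HTSeq 0.5.4p3. The strand setting is not given in the sources used here. The raw counts deposited by the authors were used for all tests. The authors also deposited a normalized signal, made by dividing each library by 1 factor, and it was read only to check the columns. The files also hold the authors' own fold changes and p-values, which were not used. The learning table has 138 lines with no gene, which were left out. Counts on genes ranged from 28639121 to 37681155 per library in the basal experiment (5 libraries) and from 24693713 to 52180305 in the learning experiment (9 libraries), and the number of libraries limits the precision.

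Counts were filtered with filterByExpr, scaled with TMM factors and tested with the quasi-likelihood test of edgeR 4.0.16 in R 4.3.3, with Benjamini-Hochberg adjustment over all genes tested. The basal table was fitted alone, the 9 learning libraries in 1 fit, and all 14 libraries in 1 fit for the difference between experiments. Intervals are 95% intervals of the fitted log2 fold change. DESeq2 1.42.0, other scalings, no filter, no fold limit, only the groups compared, the replicate number as a block, a correction for GC content and length (loess, span 0.3), a choroid plexus covariate and leaving out each library were the alternatives. The script was first tested on simulated data. GC content and positions came from NCBIM37 with GENCODE M1, and promoter windows from RefSeq. Figures and summaries were drawn up in Python 3.11.15, pandas 2.3.3 and matplotlib 3.10.9.

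The genes, role groups and lists were chosen with earlier results of these data known. All 31 genes are named. Values in every library are given for Mvd, Cyp46a1 and up to 6 differentially expressed genes per comparison with the largest change, or the 3 smallest unadjusted p-values where fewer than 3 passed. Neighbours of Mvd and the 3 other promoters shown were picked after values were seen. A gene among the other sterol genes tested is not reported here.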

Additional observations from a re-analysis of the deposited data

How the results depend on the processing

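The number of the 31 genes past the limits was recomputed under each alternative. In untrained mice the count was 1, and it was 0 with the replicate block and the GC and length correction together (Mvd at -1.11), 0 with the choroid plexus covariate, and 0 to 1 when 1 library was left out. For WT VEH vs WT VEH_HC it was 3, and it was 0 with the covariate, which turned Npc2 to -0.11, and 0 to 4 without 1 library. For TAU VEH vs WT VEH it was 7, and it was 1 with the GC and length correction, 2 with that correction and the replicate block (Lrp1 and Mvd), 0 with the covariate, 11 in a fit on only the groups compared, and 5 to 7 without 1 library. For TAU MOL vs WT VEH it was 8, and it was 3 with library size alone, 1 with the GC and length correction, 1 with that and the replicate block, 1 with the covariate, and 1 each time 1 library was left out. For TAU MOL vs TAU VEH it was 0 under every alternative run. For the difference between trained and untrained mice it was 0, and it was 1 with DESeq2 and 0 to 4 without 1 library. The cause of these moves was not tested, except that leaving out a library lowers the number of samples. The choroid plexus sums of WT VEH do not overlap those of WT VEH_HC or TAU VEH mice.

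The replicate block alone gave 1 sterol gene in untrained mice, 4 for WT VEH vs WT VEH_HC and 8 for TAU VEH vs WT VEH. It gave 7 for TAU MOL vs WT VEH and 0 for both other tests. The 1 call lost was Mvk in TAU MOL vs WT VEH (adjusted p = 0.0536). The 2 gained were Lss, lower in WT VEH vs WT VEH_HC, and Abca1, higher in TAU VEH vs WT VEH. No count of the sterol genes moved by over 1.5 times. The counts over all genes moved more in some tests. Under the block they went from 4 to 37 in untrained mice and from 1413 to 3000 for WT VEH vs WT VEH_HC. They went from 2423 to 2794 for TAU VEH vs WT VEH and from 947 to 1321 for TAU MOL vs WT VEH. For TAU MOL vs TAU VEH the count stayed at 0, and for the difference between experiments it went from 22 to 23. Replicate numbers are no pairing by design, and the deviations of libraries of the same number correlated between -0.161 and 0.243.

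Over all genes, the counts ran from 0 to 125 in untrained mice (4 in the report's fit), 0 to 3000 for WT VEH vs WT VEH_HC (1413), 0 to 3598 for TAU VEH vs WT VEH (2423), 0 to 233 for TAU MOL vs TAU VEH (0), 2 to 1590 for TAU MOL vs WT VEH (947) and 0 to 119 for the difference between experiments (22). Without 1 library they ran from 1 to 15, 73 to 2798, 915 to 1276, 0 to 11, 2 to 4 and 7 to 764. With library size alone, the lower share of the calls went from 74.9% to 28.3% for TAU VEH vs WT VEH, from 89.1% to 30.1% for TAU MOL vs WT VEH and from 36.3% to 25.4% for WT VEH vs WT VEH_HC, and the median of the 31 genes from -0.12 to 0.03 and from -0.16 to -0.03 in the first 2. In untrained mice the lower share of the calls went from 75.0% to 32.5% with DESeq2 and to 50.0% with the GC and length correction. With that correction 12 of all genes passed in untrained mice, 908 for WT VEH vs WT VEH_HC and 535 for TAU VEH vs WT VEH. It gave 0 for TAU MOL vs TAU VEH and 20 for TAU MOL vs WT VEH, where library size alone gave 1083. The correction with the replicate block gave 0 in untrained mice, 767 for TAU VEH vs WT VEH and 52 for TAU MOL vs WT VEH. The fit on only the groups compared gave 3399 for TAU VEH vs WT VEH. With the choroid plexus covariate 0 of all genes passed for WT VEH vs WT VEH_HC and 0 for TAU VEH vs WT VEH. The covariate gave 2 in untrained mice and 2 for TAU MOL vs WT VEH. Idi1, a gene of low counts, had the widest interval of the 31 genes in each of the 5 comparisons of groups.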
